A study of Homo sapiens with 4 samples.

Results

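The mRNA levels of 10 histone lysine demethylase genes were followed upon HMGB1 knockdown in IMR90, a line of human fetal lung fibroblasts. The genes were KDM1A, KDM2A, KDM2B, KDM3A, KDM3B, KDM4A, KDM4B, KDM5A, KDM5B and KDM6B, taken by symbol from the 63677 genes of the count tables. All 10 passed the filter on low counts, which left 15398 genes to test. KDM3A differed most, at a 3.16-fold lower mean level in knockdown than in control. KDM6B, 52.4% higher, was the only member whose knockdown libraries both lay above both control libraries, a pattern met by 29.8% of tested genes. Neither gene passed the cutoffs for a call in the fit that left the libraries unpaired.

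Methyl groups on histone lysines are removed by enzymes of a pair of chemistries. KDM1A, also called LSD1, is an amine oxidase that uses FAD and works on histone H3 lysine 4 within the CoREST corepressor complex. The other members carry a Jumonji C domain, which uses iron, oxygen and 2-oxoglutarate, so their activity is known to depend on oxygen and on metabolism. Each subfamily prefers its own lysines, and KDM6B is known for removing methyl groups from H3 lysine 27 at the CDKN2A locus in stressed or ageing fibroblasts.

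RNA was collected 72 h after RNAiMAX transfection with a non-targeting control (NTC) siRNA or with siRNA against HMGB1, and poly(A)-selected RNA was sequenced. Each group held 2 libraries, and replicate 1 came from isolate I90-10 and replicate 2 from isolate I90-79 in both groups. Both isolates were single isolates at passage 5 when culture began, the labels name no allele or further agent in either group, and the study's methods mention 2 different siRNAs for IMR90 without naming which one went into which library. P-values therefore measure the spread between these 4 samples, and the isolate, the culture and the siRNA cannot be told apart as sources of that spread.

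The 4 libraries held between 29861687 and 35317010 counts. HMGB1, an abundant nuclear DNA-bending protein and the target of the siRNA, was at 181 and 237 CPM (counts scaled to library size by TMM) in control and at 16.0 and 18.9 CPM in knockdown, a log2 fold change of -3.59 (SE 0.19, adjusted p = 0.00751, edgeR's quasi-likelihood test). Without knockdown replicate 1 the adjusted p was 0.0487 at a log2 fold change of -3.47, and without knockdown replicate 2 it was 0.0324 at -3.71, so the call of HMGB1 was lost with either of these libraries left out. In such a fit the spread comes from the group that keeps both libraries, and the lone library is assumed to vary alike. All 8 fibroblast markers were detected, and their summed level was 33524 and 18746 CPM in control and 31436 and 20553 CPM in knockdown, higher in isolate I90-10 in both groups. With the isolate as a block, the fibroblast markers THY1 (log2 fold change -0.99, adjusted p = 3.1e-04, edgeR) and PDGFRB (-0.68, adjusted p = 0.00265) were called lower and LUM (0.83, adjusted p = 0.00294) higher. Of the markers of other cell types, the summed epithelial level was 57.6 and 70.1 CPM in control and 75.9 and 99.0 CPM in knockdown, higher in knockdown, with KRT5 at 0 counts and CDH1 at no more than 1. Most of it was KRT18, which shares 24.7% of its exonic bases with another gene and was called higher with the block (0.74, adjusted p = 9.5e-04, edgeR), whereas KRT8 was at -0.60 (adjusted p = 0.0111). The summed endothelial level was 147 and 155 CPM in control and 131 and 135 CPM in knockdown and nearly all of it was TEK, with CDH5 and EMCN at 0 counts in every library, and VWF, at 4.16 CPM or less, was called higher with the block (1.55, adjusted p = 0.00357, edgeR). The endothelial marker PECAM1 was not found by its symbol, so this sum leaves it out and its level is not known. The summed leukocyte level was at most 0.670 CPM, and CD3E was at 0 counts. The part of these marker differences in the demethylase values was not tested.

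Calls needed an adjusted p below 0.01 together with a log2 fold change beyond 0.6 in either direction, which are the cutoffs given in the study's methods. In the edgeR fit without the isolate, 31 genes or 0.201% of those tested passed in either direction. The study used these cutoffs after RUVs and DESeq2, a sequence that here called 765 genes higher and 832 lower. None of the 10 demethylase genes passed in this edgeR fit, while 2 had an unadjusted p below 0.05, against 28.3% of all tested genes. With the isolate as a block in the fit, so that libraries were paired, KDM3A was called lower and KDM6B higher, against 7.84% and 6.68% of all tested genes called in those directions. DESeq2 called 1 member lower, KDM3A, and so did RUVs followed by DESeq2, against 5.31% and 5.40% of tested genes. The median log2 fold change of the 10 genes was -0.06, beside -0.01 over all tested genes, and 3 of them had a positive and 7 a negative value. In 3 members, KDM1A, KDM3A and KDM3B, both knockdown libraries lay below both control libraries, a pattern met by 30.2% of all tested genes, and in KDM6B both lay above, a pattern met by 29.8%.

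**Figure D1:**
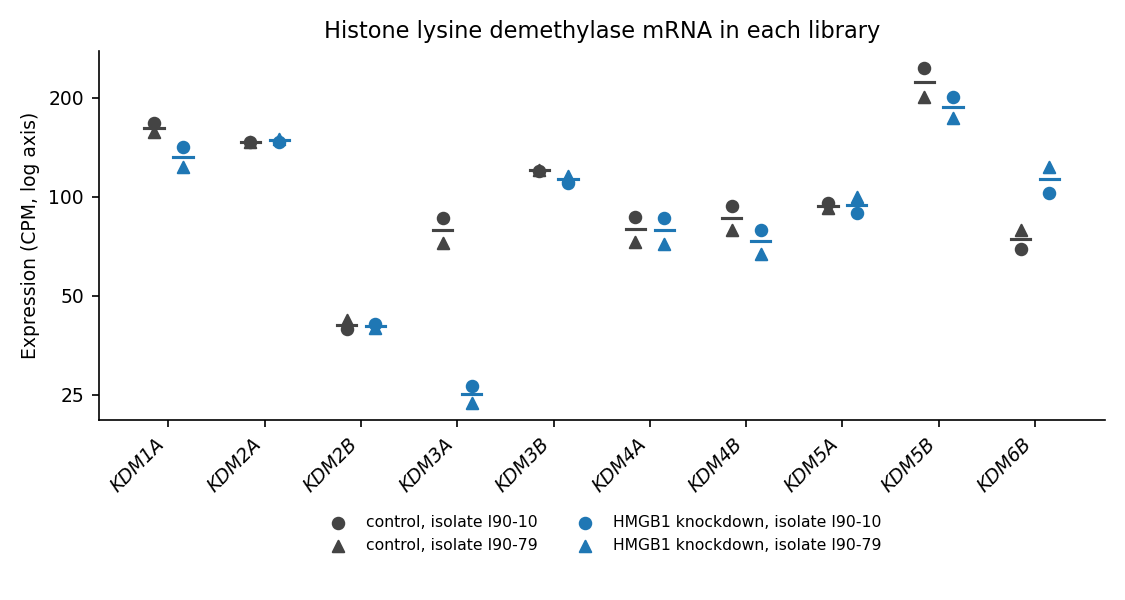
Level of each demethylase mRNA in CPM on a log axis, with 1 point a library (circle for isolate I90-10, triangle for I90-79), control in grey, HMGB1 knockdown in blue, and a bar at the mean of 2. KDM3A separates downward, from 86.3 and 72.4 to 26.7 and 23.6 CPM, and KDM6B upward, from 69.3 and 79.3 to 103 and 123 CPM.

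KDM3A and KDM3B remove mono- and dimethyl groups from H3 lysine 9, a mark of silent chromatin, and KDM3A is also known as a gene that hypoxia-inducible factor switches on. KDM3A (ENSG00000115548, hg19 chr2:86667770-86719839, plus strand, none of its exonic bases shared with another gene) was at 86.3 and 72.4 CPM in control and at 26.7 and 23.6 CPM in knockdown. The lowest control library lay well above the highest knockdown library, and the raw counts behind the knockdown values were 770 and 736, where counting error alone is 3.69% or less. Mean levels were 79.3 ± 9.78 CPM for control (SD, n = 2) and 25.1 ± 2.19 CPM for knockdown (SD, n = 2), a 3.16-fold lower level. The log2 fold change was -1.66 (SE 0.15, 95% interval -2.03 to -1.29), and in edgeR's quasi-likelihood test its adjusted p was 0.0104, just outside the threshold of 0.01. By unadjusted p KDM3A ranked 91 among the 15398 tested genes. At the looser adjusted p below 0.05, KDM3A was the single member called lower, against 4.34% of tested genes.

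The ratio of KDM3A was nearly the same in both isolates, with a log2 difference of -1.69 in I90-10 and -1.62 in I90-79. With the isolate as a block, KDM3A fell by 1.66 on the log2 scale (SE 0.10, adjusted p = 4.9e-05, edgeR), and after RUVs, which removes 1 factor of unwanted variation, the DESeq2 value was -1.54 (adjusted p = 2.4e-17). With 1 library left out, the log2 fold change ran from -1.78 to -1.53. The adjusted p was 0.00304 and 0.00165 without control replicate 1 and 2, where the spread rests on the knockdown libraries alone, and 0.0621 and 0.0524 without knockdown replicate 1 and 2, where it rests on the control libraries alone (edgeR). Because these are bulk libraries, fewer cells that express a gene and less of its RNA per cell cannot be told apart.

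Its paralog KDM3B (ENSG00000120733, chr5:137688285-137772717, plus strand) was at 120 and 121 CPM in control and at 110 and 116 CPM in knockdown. Both knockdown libraries lay below the control libraries, but the log2 fold change of -0.10 (95% interval -0.37 to 0.17) was small beside its interval and had an adjusted p of 0.591 in edgeR. In reads per kilobase scaled to library size (RPKM), the level of KDM3A relative to KDM3B was 0.425 and 0.355 in control and 0.144 and 0.120 in knockdown. The ratio thus dropped by 1.56 on the log2 scale in I90-10 and by the same amount in I90-79.

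KDM6B, also called JMJD3, removes methyl groups from H3 lysine 27 and so acts against Polycomb silencing. KDM6B (ENSG00000132510, chr17:7743222-7758114, plus strand, no shared exonic bases) was at 69.3 and 79.3 CPM in control and at 103 and 123 CPM in knockdown. The 2 groups did not overlap, and in both of them I90-79 was the higher isolate. Mean levels were 74.3 ± 7.07 CPM for control (SD, n = 2) and 113 ± 13.9 CPM for knockdown (SD, n = 2), 52.4% higher by the fit. Its log2 fold change was 0.61 (SE 0.14, 95% interval 0.25 to 0.96) with an unadjusted p of 0.00664 and an adjusted p of 0.0615 in edgeR's quasi-likelihood test, and so it was not called. With the isolate as a block, KDM6B rose by 0.61 on the log2 scale (SE 0.09, 95% interval 0.39 to 0.82, adjusted p = 0.00208, edgeR). This value sat at the edge of the fold threshold of 0.6, and the RUVs value of 0.49 (adjusted p = 0.00933, DESeq2) lay under it. The log2 difference was 0.58 in I90-10 and 0.63 in I90-79.

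KDM1A (ENSG00000004487, chr1:23345941-23410182, plus strand) was at 167 and 157 CPM in control and at 142 and 123 CPM in knockdown. Both knockdown libraries lay below both control libraries, and I90-10 was the higher isolate in both groups. The log2 fold change was -0.28 (SE 0.13, 95% interval -0.60 to 0.03, adjusted p = 0.214, edgeR), and with the isolate as a block it was -0.29 at an adjusted p of 0.0492, which passed neither threshold of the call.

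KDM5A and KDM5B remove methyl groups from trimethylated H3 lysine 4, the mark of active promoters, and KDM5A was first described as a partner of the retinoblastoma protein. KDM5B (ENSG00000117139, chr1:202696526-202778598, minus strand) was at 247 and 201 CPM in control and at 201 and 174 CPM in knockdown, so the groups met at the control library of I90-79 and the knockdown library of I90-10. Its log2 fold change was -0.26 (95% interval -0.65 to 0.14, adjusted p = 0.337, edgeR). KDM5A (ENSG00000073614, chr12:389295-498620, minus strand, 1.51% of its exonic bases shared with CCDC77) was at 95.5 and 92.3 CPM in control and at 89.3 and 100 CPM in knockdown. The knockdown libraries of KDM5A lay on either side of the control libraries, with a log2 difference of -0.10 in I90-10 and 0.12 in I90-79, and the fitted value was 0.01 (95% interval -0.28 to 0.30, adjusted p = 0.959, edgeR).

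KDM4A and KDM4B remove trimethyl groups from H3 lysine 9 and lysine 36. KDM4B (ENSG00000127663, chr19:4969125-5153606, plus strand) was at 93.5 and 79.2 CPM in control and at 79.5 and 67.0 CPM in knockdown. Within each isolate the knockdown library was lower, by a log2 difference of -0.23 in I90-10 and -0.24 in I90-79, but the groups overlapped because I90-10 was the higher isolate in both. The fitted log2 fold change was -0.24 (95% interval -0.61 to 0.13), with an adjusted p of 0.344 without and of 0.0896 with the isolate as a block in edgeR. KDM4A (ENSG00000066135, chr1:44115829-44171186, plus strand) was at 86.8 and 72.9 CPM in control and at 86.3 and 71.9 CPM in knockdown. Each knockdown library stood almost on the control library of its own isolate, and the log2 fold change was -0.01 (95% interval -0.40 to 0.37, adjusted p = 0.963, edgeR). Of the exonic bases of KDM4A, 8.97% overlap the antisense gene KDM4A-AS1. The strand setting is not given, so it is not known whether reads there were counted for KDM4A, for the antisense gene or for neither.

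KDM2A and KDM2B carry a zinc finger that binds unmethylated CpG islands and act on H3 lysine 36, and KDM2B brings a variant Polycomb repressive complex 1 (PRC1) to those islands. KDM2A (ENSG00000173120, chr11:66886740-67025558, plus strand) was at 147 and 147 CPM in control and at 147 and 150 CPM in knockdown, nearly level and with overlapping groups. Its log2 fold change was 0.02 (95% interval -0.25 to 0.28, adjusted p = 0.941, edgeR). KDM2B (ENSG00000089094, chr12:121866900-122018920, minus strand, 4.87% of its exonic bases shared with RNF34 and KDM2B-DT) was at 39.6 and 42.1 CPM in control and at 41.2 and 40.0 CPM in knockdown. Its groups overlapped, and the log2 fold change was -0.01 (95% interval -0.29 to 0.27, adjusted p = 0.964, edgeR).

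**Figure D2:**
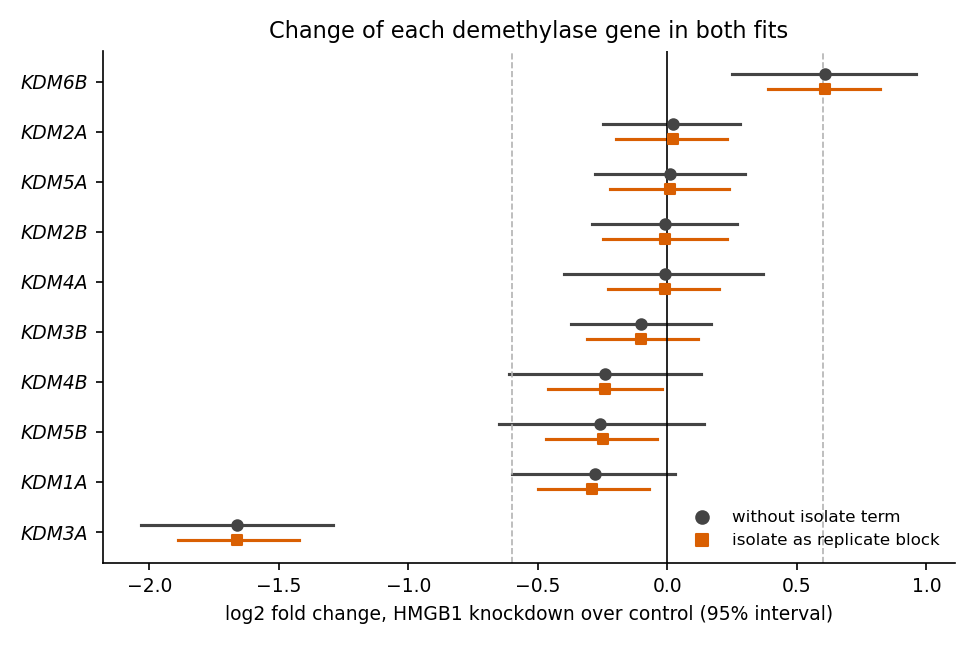
Log2 fold change of each gene, knockdown over control, as points with 95% intervals, from the fit without an isolate term (grey) and with isolate as replicate block (orange), and dashed lines at the fold threshold of 0.6 in both directions. KDM3A at -1.66 lies beyond the threshold with its whole interval in both fits, KDM6B at 0.61 lies on it, and the other 8 genes lie between -0.28 and 0.02 in the fit without the isolate.

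The largest differences between the isolates in these genes were about the size of the knockdown differences of KDM1A, KDM4B and KDM5B. In the fit with both terms, the log2 difference of I90-79 over I90-10 ran from -0.26 in KDM4A and KDM5B to 0.22 in KDM6B, with SE of 0.09 to 0.10, and none of the 10 was called at an adjusted p below 0.01, the lowest being 0.149 for KDM5B (edgeR). Over all genes, 1.67% were called between isolates.

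Compared per length, KDM1A stood highest among the 10, with a mean level of 27.0 RPKM over the 4 libraries (22.6 to 30.6), above 89.3% of tested genes. KDM5B followed at 22.4 RPKM (18.9 to 26.9), and its range overlapped that of KDM1A. A gap then led to KDM4A at 15.4 RPKM, KDM3B at 14.7, KDM2A at 14.4 and KDM6B at 12.9, whose ranges overlapped from each to the next. KDM4B at 8.19 RPKM and KDM5A at 7.80 RPKM formed the next neighbours, with overlapping ranges. The highest value of KDM4B, 9.60 RPKM, just passed the lowest of KDM6B, 9.55 RPKM. KDM3A at 3.89 RPKM (1.76 to 6.43) and KDM2B at 2.99 RPKM (2.91 to 3.09) stood lowest, and the range of KDM3A did not reach that of KDM5A. The order changed most at KDM6B, which was the 6th of the 10 in control, at 10.2 ± 0.975 RPKM (SD, n = 2), and the 3rd in knockdown, at 15.6 ± 1.91 RPKM (SD, n = 2). KDM3A went from 5.91 ± 0.729 RPKM (SD, n = 2) to 1.87 ± 0.163 RPKM (SD, n = 2) and changed places with KDM2B as the lowest of the 10.

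As a whole, the mRNA of the 10 genes summed to 1153 and 1064 CPM in control and to 1027 and 989 CPM in knockdown, so the knockdown sum lay below the control sum in both isolates. Its make-up, as shares of the summed RPKM, moved furthest at KDM6B, and KDM3A, KDM1A, KDM5B and KDM4B held smaller shares in knockdown. The share of KDM4B was 6.85% and 6.28% in control and 6.39% and 5.66% in knockdown. The share of KDM3A was 4.58% and 4.17% in control and 1.56% and 1.45% in knockdown. The share of KDM6B was 6.82% and 8.44% in control and 11.2% and 14.0% in knockdown. KDM1A, the largest contributor, held 21.8% and 22.2% in control and 20.5% and 18.6% in knockdown, and KDM5B held 19.2% and 16.9% in control and 17.2% and 15.6% in knockdown.

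The balance within the other paralog pairs moved less than that of KDM3A and KDM3B. The RPKM ratio of KDM4A to KDM4B was 1.75 and 1.73 in control and 2.05 and 2.02 in knockdown, a small shift of 0.23 and 0.22 on the log2 scale that was nearly equal in both isolates. The ratio of KDM5A to KDM5B was 0.293 and 0.349 in control and 0.337 and 0.437 in knockdown, with groups that overlapped and a log2 shift of 0.20 in I90-10 and 0.33 in I90-79. The ratio of KDM2A to KDM2B, 4.95 and 4.63 in control and 4.74 and 4.99 in knockdown, shifted by -0.06 in one isolate and by 0.11 in the other. With 2 libraries against 2, an exact permutation test of such a ratio cannot go below a two-sided p of 0.333, and none was run.

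**Figure D3:**
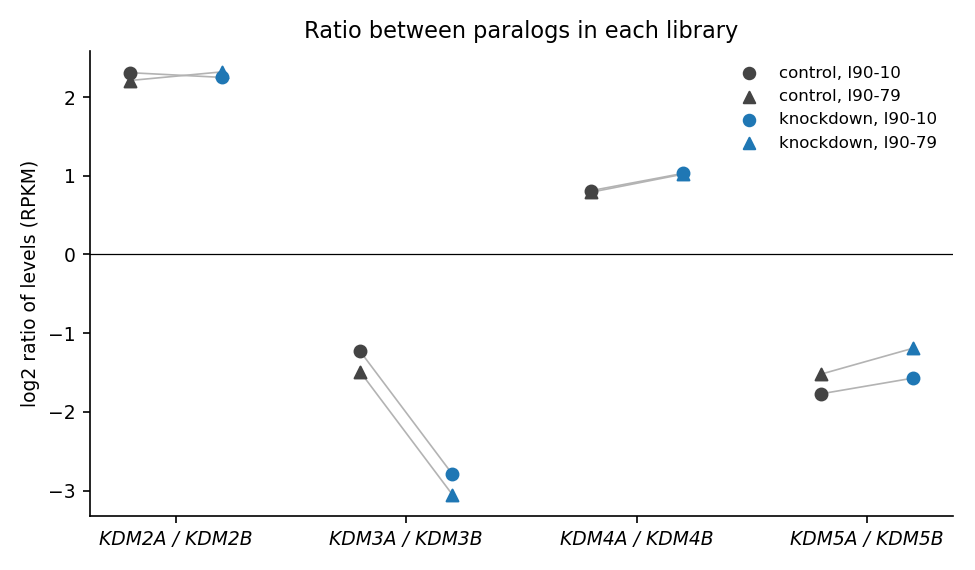
Log2 ratio of the RPKM levels of the 4 paralog pairs in each library, with lines that join control (grey) to knockdown (blue) within an isolate (circle for I90-10, triangle for I90-79). The KDM3A to KDM3B lines drop in parallel by 1.56, whereas the other 3 pairs shift by 0.33 or less.

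The 3' untranslated region (UTR) is a usual target of small RNAs, and the hexamer GCAGTT was searched in it because genes that hold this word had lower values over the whole table of these same libraries. Among 12359 tested genes with a 3' UTR of at least 100 bases, the median log2 fold change was 0.07 in the 7882 genes with 0 copies, -0.10 in the 2714 genes with 1 copy and -0.26 in the 1763 genes (14.3%) with 2 or more copies. Because the word was picked by values of these same libraries, the medians describe that choice and are no test of it. The median 3' UTR length rose with the copies, from 886 through 2197 to 4188 bases, and the part of length in these medians was not tested. KDM3A held 2 copies in a 3' UTR of 597 bases, KDM5B held 3 in 4541 bases and KDM5A held 1 in 5399 bases, while the other 7 members, KDM3B (1327 bases) and KDM6B (1275 bases) among them, held 0. The windows that hold both copies in KDM3A, with 1 of KDM5A and 1 of KDM5B for comparison, are shown 5' to 3' along the transcript, from the GRCh37 genome, with the word in capitals. They lie at chr2:86719514-86719543 and chr2:86719666-86719695 (both plus strand), chr12:390089-390118 (minus strand) and chr1:202696593-202696622 (minus strand).
KDM3A copy 1: ggaacaatacctGCAGTTattcttcagctg
KDM3A copy 2: acagctaatgttGCAGTTcttattgtatgg
KDM5A copy 1: acctgtgccaaaGCAGTTtctaatttcatt
KDM5B copy 1: acaacaaaaacaGCAGTTtgtgatatagca
The 3 genes with the word had log2 fold changes of -1.66, 0.01 and -0.26. Of the related genes called lower with the isolate as a block, those named below held 1 to 5 copies, except P4HA2 with 0. Of those called higher, SETD7, IDH3A and ERO1A held 1 each, and KDM5C and SUV39H2 held 0. Over all 12359 genes, 63.8% held 0 copies. Since the word was picked by values of these libraries, these copies are no test of it either. The sequences of the siRNAs were not given in the sources used here, and whether the word had a part in the values was not tested.

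Of the promoters of the 10 genes (RefSeq, GRCh38.p14, 300 bases around each of 16 start sites), those of 9 genes held ACGTG or GCGTG on either strand, the core letters of the element that hypoxia-inducible factor binds, against 52.4% of 27305 genes with such windows. Both KDM3A and KDM6B, which differed from control in opposite directions, held GCGTG, and KDM3B did not hold either word. The other KDM6B promoter, at chr17:7839667-7839966, held neither word. The KDM3A and KDM6B windows around GCGTG are shown with the word in capitals, from chr2:86441333-86441361 and chr17:7833974-7834002 (GRCh38.p14, both plus strand).
KDM3A promoter: ccgggaggctgtGCGTGtcttgtgagagc
KDM6B promoter: ccttagaagggcGCGTGatccaaatgagt
Both words hold a CpG, and a match of so few letters describes the window and does not show a binding site. TATAAA was in 0 of the 16 promoters, against 11.5% of all 35116 promoters, and the GC content of the 16 windows ran from 53% to 84%, beside a median of 58.7%. CpG counts of the 16 promoters ran from 2 to 46, beside a median of 14 over all promoters. They were 23 and 31 for KDM3A and 24 for the KDM6B promoter shown. The part of CpG content in the share of genes with either word was not tested.

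The genes around the demethylases were read from 10 lists, with 99 genes tested in all. None of the 99 was called in the edgeR fit without the isolate, beside 34 with an unadjusted p below 0.05, against 28.3% of all tested genes. With the isolate as a block, 5 were called higher and 14 lower, against 6.68% and 7.84% of all tested genes. Among 13 other demethylase genes, the median log2 fold change was -0.17, and the block called 1 higher and 1 lower. KDM4C, a relative of KDM4A and KDM4B, was at 29.0 and 30.1 CPM in control and at 14.8 and 16.7 CPM in knockdown, without overlap. It fell in the blocked fit (adjusted p = 8.4e-04), and in the fit without the block its log2 fold change was -0.91 (SE 0.14, adjusted p = 0.0264, edgeR). KDM5C, a relative of KDM5A and KDM5B, was at 188 and 206 CPM in control and at 297 and 329 CPM in knockdown. KDM5C rose in the blocked fit (adjusted p = 0.00128) at a log2 fold change of 0.67 (SE 0.13, adjusted p = 0.0429 without the block, edgeR). KDM6A, the X-linked relative of KDM6B and a gene outside the naming rule, was at 48.0 and 46.9 CPM in control and 39.8 and 44.3 CPM in knockdown, with a log2 fold change of -0.18 (adjusted p = 0.383, edgeR).

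Among the partners of KDM1A and KDM2B, no gene was called higher in the blocked fit. ZMYM3, a protein associated with the CoREST complex of KDM1A, had a log2 fold change of -0.47 (adjusted p = 0.164, edgeR) and stayed under the fold threshold in both fits. RYBP and YAF2, a pair of alternative subunits of the variant PRC1 that KDM2B recruits, were both lower. RYBP was at 57.5 and 50.2 CPM in control and at 27.8 and 24.6 CPM in knockdown (log2 fold change -1.04, adjusted p = 0.020 without and 2.6e-04 with the block, edgeR), and YAF2 at 10.8 and 10.7 CPM in control and 4.54 and 4.90 CPM in knockdown (-1.18, adjusted p = 0.0265 and 0.00132). The median over the list was -0.17 for 11 CoREST genes and -0.12 for 9 PRC1 genes.

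The methyltransferases that write the marks these demethylases remove were mixed. For H3 lysine 4, 1 of 11 genes was called with the block, SETD7, which rose from 62.0 and 88.8 to 187 and 204 CPM (log2 fold change 1.38, adjusted p = 0.0231 without and 1.4e-04 with the block, edgeR), and ASH2L, a core subunit of the enzyme complexes, was at -0.40 (adjusted p = 0.088) and was not called. For H3 lysine 9, SUV39H2 was the 1 of 7 genes called with the block, with a log2 fold change of 0.79 (adjusted p = 0.129 without and 0.00582 with the block, edgeR), and SUV39H1, with 20.3% of its exonic bases shared, was at 0.55 (adjusted p = 0.207). For H3 lysine 27, the mark that KDM6B removes, 2 of 4 genes fell in the blocked fit, the catalytic subunit EZH2 at -0.69 (adjusted p = 0.136 without and 0.00283 with the block, edgeR) and its partner SUZ12 at -0.63 (adjusted p = 0.0795 and 0.00316). For H3 lysine 36, none of 5 genes was called in either fit, and SETD2 and NSD2 were at -0.26 (adjusted p = 0.178) and -0.27 (adjusted p = 0.27, edgeR).

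Jumonji demethylases share their cofactors with other dioxygenases, of which 2 of 8 genes fell in the blocked fit. These were TET2, which oxidises methylcytosine, at -0.81 (adjusted p = 0.0362 without and 0.00166 with the block, edgeR), and ALKBH5, an RNA demethylase with 11.2% of its exonic bases shared, at -0.86 (adjusted p = 0.0191 and 5.5e-04). Of 13 genes of 2-oxoglutarate metabolism, 1 was called higher and 1 lower with the block, IDH3A, with 38.9% of its exonic bases shared, at 0.80 (adjusted p = 0.0987 without and 0.00126 with the block) and IDH2 at -0.95 (adjusted p = 0.109 and 4.0e-04), both subunits or forms of isocitrate dehydrogenase, which makes 2-oxoglutarate, and both named after their values were seen. SDHB, of the complex that turns over succinate, and GLUD1, glutamate dehydrogenase, with 11.5% shared exonic bases, were at 0.46 (adjusted p = 0.0669) and -0.41 (adjusted p = 0.0768, edgeR) and were not called.

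KDM3A is counted among the targets of hypoxia-inducible factor, and 18 genes of that pathway, subunits and targets, were tested. With the block 5 fell and 1 rose, against 7.84% and 6.68% of all tested genes called in those directions. The list median was -0.16, with 7 positive and 11 negative values, beside 7642 and 7756 over all tested genes. HIF1A, its oxygen-regulated subunit, was at 500 and 668 CPM in control and at 289 and 313 CPM in knockdown (log2 fold change -0.96, adjusted p = 0.0416 without and 5.5e-04 with the block, edgeR). NDRG1, a target, was at 169 and 156 CPM in control and at 98.6 and 82.0 CPM in knockdown (-0.85, adjusted p = 0.0299 and 5.0e-04). The remaining genes called lower, P4HA2 at -1.14, EPAS1 at -0.76 and PDK1 at -0.78, and the gene called higher, ERO1A at 0.80, were named after their values were seen. The well-known target VEGFA, also chosen after its values were seen, was at 0.48 (adjusted p = 0.152 without and 0.00915 with the block, edgeR), under the fold threshold. Whether the factor had a part in the KDM3A values was not tested.

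**Figure D4:**
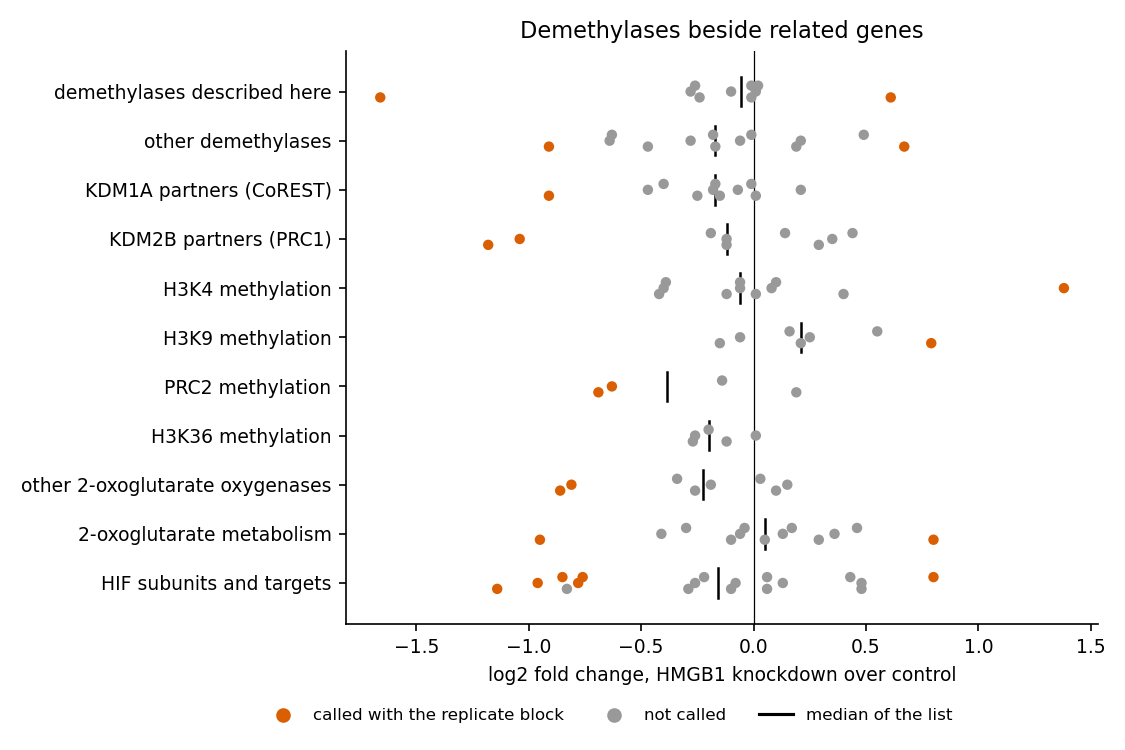
Log2 fold change, knockdown over control, of each tested gene of the demethylases and of 10 lists of related genes, 1 point a gene, in orange where the fit blocked by isolate called it, and a black line at each list's median. KDM3A at -1.66 is the lowest point of the plot and SETD7 at 1.38 the highest.

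The genes whose 4 values, centred on their mean in log2 CPM, lay nearest to those of KDM3A were SNORD12, FOXO3 and DNAAF9, at Euclidean distances of 0.06, 0.09 and 0.11 over the 4 libraries. FOXO3, a stress-response transcription factor, was at 88.5 and 68.4 CPM in control and at 26.0 and 23.6 CPM in knockdown, and DNAAF9 at 81.8 and 62.0 CPM and at 24.0 and 21.1 CPM. SNORD12, a small nucleolar RNA, was at 0.443 CPM or less in every library, too low for its likeness to be read closely. Among related genes that had no test, KMT2B and RIOX1 were at 0 counts in all 4 libraries, and 100% and 98.6% of their exonic bases were shared with another gene entry.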

How the data were processed

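Per the labels and the study's methods, poly(A)-selected RNA of 2 control and 2 HMGB1 knockdown cultures was made into libraries with a TruSeq RNA kit, paired-end reads were mapped to hg19 with STAR, and uniquely mapped reads were counted per gene with featureCounts. Tool versions and the strand setting are not given in the sources used here. The authors deposited 1 table of raw counts per library, with no normalization, for 63677 genes, of which 55665 were paired with a symbol. The 5904 genes off the primary chromosomes and the 37 mitochondrial genes held 0 counts. Library totals were 29869338 and 35317010 counts in control and 29861687 and 31086475 in knockdown, and the members held 736 to 7407 counts per library, where counting error alone is 3.69% to 1.16%.

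Counts were tested with edgeR 4.0.16 in R 4.3.3 (TMM, filterByExpr, quasi-likelihood test, Benjamini-Hochberg adjustment over all 15398 genes tested), without an isolate term. The study's methods instead name RUVs followed by DESeq2 and state no isolate term, and that sequence was run as an alternative. Levels are TMM-scaled CPM or, between genes, RPKM by the length in the tables. The isolate pairs the libraries, since same-numbered libraries come from the same isolate, and their deviations correlated (r = 0.464 across 15398 genes, which are not independent). Alternatives were DESeq2 1.42.0, RUVs written out from its published description with 1 factor on size-factor-scaled counts and all genes as controls, DESeq2 size factors in edgeR, other filters and thresholds, the isolate as a block, and each library left out. The fits were run on simulated counts with known changes first. Named are the 10 members, HMGB1, the 2 genes with the smallest p of each list (1 of them is not reported here), the 3 genes nearest to KDM3A, and others where so marked. The members and the lists, the searched words included, were chosen with earlier results of these data known. The 3' UTRs come from a GENCODE annotation lifted to GRCh37, 1 canonical transcript a gene, and promoters from RefSeq.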

Additional observations from a re-analysis of the deposited data

Results flagged for a closer look

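In 3 of the 10 genes the knockdown library was lower than control in one isolate and higher in the other, by the log2 ratio of CPM. The values were -0.0972 in I90-10 and 0.115 in I90-79 for KDM5A, 0.0576 and -0.0755 for KDM2B, and -0.00244 and 0.0328 for KDM2A. Of the 10 genes, 1 was higher and 6 were lower in knockdown in both isolates. Over all 15398 tested genes, 5987 were higher and 6071 lower in both. With 1 library of each group per isolate, the difference between isolates was not tested.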

How the results depend on the processing

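KDM3A was lower and KDM6B higher in every fit run, and neither passed the call in the fit without the isolate. KDM3A passed under DESeq2 (-1.66), RUVs (-1.54), no filter on low counts (-1.65), the replicate block (-1.66) and an adjusted p below 0.05 (-1.66), and ranged from -1.78 to -1.53 with 1 library left out. KDM6B passed without the filter (0.62) and with the replicate block (0.61), and ranged from 0.48 to 0.73 over all alternatives. HMGB1 ranged from -3.77 to -3.38 with 1 library left out, and its call was lost without either knockdown library (-3.47 and -3.71). Signs turned near 0 in KDM4A (0.12 under RUVs and -0.15 to 0.12 with a library left out), KDM5A (-0.01 under RUVs and -0.07 to 0.09) and KDM2B (-0.06 to 0.04, with 0.02 among them). Members called numbered 1 lower under DESeq2, RUVs, no filter, the block and an adjusted p below 0.05, 1 higher under no filter and the block, and 0 to 1 lower with a library left out. Of 99 related genes, 3 were called higher and 9 lower under DESeq2, 2 and 12 under RUVs, 5 and 14 both without the filter and with the block, 3 and 8 at an adjusted p below 0.05, and 0 to 1 each way with a library left out. Over all genes the calls, 10 higher and 21 lower, became 728 and 818 under DESeq2, 765 and 832 under RUVs, 1118 and 1275 without the filter, 1028 and 1207 with the replicate block and 575 and 668 at an adjusted p below 0.05, with 6 higher at 10 counts or more in every library. With a library left out, where the spread rests on the group that keeps both libraries, they ran from 0 to 305 higher and from 0 to 337 lower, the 0 without either knockdown library, the 305 and 337 without control replicate 2, and 118 and 181 without control replicate 1. The cause was not tested. The order by level held 5 of 10 genes in place when scaled without gene length, and 8 to 10 with a library left out. With 2 libraries a group, changes of the size seen in KDM1A, KDM4B and KDM5B, between -0.28 and -0.24, lay within intervals that reach 0 in the fit without the block and were called in neither fit. Beside KDM3A, KDM6B and the related genes and cell type markers called with it, the replicate block changed no call printed in the text.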
